A study of Mus musculus with 14 samples.

Results

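The cytochrome P450 genes of families 1 to 3 were taken as every row of the liver and kidney count tables whose symbol is Cyp, then 1, 2 or 3, then a subfamily letter. The rule found 56 genes, of which 55 were among the 19660 genes of the liver table and 33 among the 20203 genes of the kidney table. Both tables held 32 of them. The genes fell into 14 subfamilies, and 7 carried a pseudogene symbol. All animals were adult male transgenic (TG) mice of genotype Hap -6A, 12 weeks old, in a series on the human angiotensinogen gene (hAGT), so control and high salt groups carried the same genotype and no group without it was compared. The groups were liver on Normal Diet (4 libraries, N1 to N4), liver on High Salt (4 libraries), kidney on Normal Diet (3 libraries, N1 to N3) and kidney on High Salt (3 libraries, HS1 to HS3). The high salt liver columns carry numbers that match no sample title, so they were used as members of their group and are called HS5, HS6, HS7 and HS8. The labels give no salt content, no length of the diet, no background strain and no animal numbers, so p-values measure the spread between these libraries.

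Libraries held 37267778 to 51487382 counts in liver and 16046094 to 22004927 in kidney. The 15 hepatocyte markers summed to between 96679 and 129513 CPM (counts scaled to a common library size) in the liver libraries, and the 15 kidney tubule and podocyte markers to between 26905 and 60505 CPM in kidney, so each tissue carried its labelled markers. HS5 and HS6 were the most alike pair of livers, with a median chi-square per gene of 0.797 against 4.31 to 21.6 in the other high salt pairs. N1 and N2 stood next, at 2.25, and had 2.06% to 2.30% of their counts in mitochondrial genes where the other livers had 11.3% to 29.6%. Liver N4 held the highest level of 25 of 26 acute phase genes, which summed to 118489 CPM there and to between 15707 and 27564.5 CPM in the other 7 livers. These libraries touch the liver results, and the calls are given below with and without them. Whether HS5 and HS6 came from separate animals cannot be told from the labels, and each was counted as a library of its own.

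P450 enzymes are heme proteins, held mostly in the endoplasmic reticulum, that use oxygen and electrons from the reductase encoded by Por to oxidise drugs, toxins, steroids and fatty acids. Families 1 to 3 carry most drug metabolism in liver, where many members lie in the hepatocytes around the central vein. Several are induced through receptors that sense foreign compounds, such as the aryl hydrocarbon receptor (Ahr) for family 1 and the receptors CAR (Nr1i3) and PXR (Nr1i2) for the Cyp2b, Cyp2c and Cyp3a genes. In kidney, Cyp2c and Cyp2j enzymes are known for turning arachidonic acid into epoxides that act on vessels and on sodium transport.

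Many members are near-identical copies, which limits how reads can be assigned. Proteins translated from the annotated coding sequences placed 21 members in 8 groups linked by at least 90% identity, among them Cyp3a11 with Cyp3a41a, Cyp3a41b and Cyp3a44. The pair the results turn on most is Cyp2a4, known as a steroid 15-alpha-hydroxylase, at chr7:26307169-26315088, and Cyp2a5, known as the coumarin 7-hydroxylase, at chr7:26835305-26843548, both on the plus strand of mm10. Their proteins share 97.57% of residues, their coding sequences differ at 23 of 1485 bases, and the longest stretch with no difference runs over 216 bases. The 12 residues that differ include F209L (position from the first methionine, Cyp2a5 residue first), a residue known to set which substrate each enzyme takes. The stretch below is the 120-base coding window with the most differences, bases 550 to 669 counted from the start codon, 5′ to 3′. It is shown because, within it, only reads over the capital letters, the 6 bases that differ, can tell the copies apart.
Cyp2a4: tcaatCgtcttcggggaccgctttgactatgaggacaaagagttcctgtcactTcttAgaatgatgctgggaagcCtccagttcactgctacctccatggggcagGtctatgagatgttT
Cyp2a5: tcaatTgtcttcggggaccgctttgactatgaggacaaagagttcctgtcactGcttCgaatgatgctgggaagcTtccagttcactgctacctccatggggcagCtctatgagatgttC

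In liver, the summed level of the members was 27824 ± 9434 CPM (SD, n = 4) on the normal diet and 15545 ± 2123 CPM (SD, n = 4) on high salt. The sum was 32582, 36568, 27268 and 14877 CPM in N1 to N4, and 14965, 14644, 18661 and 13912 CPM in HS5 to HS8. Only N4 among the normal diet libraries lay within the high salt range. In bulk tissue, fewer cells of a type and less RNA per cell cannot be told apart. Cyp2e1 and Cyp3a11 carried 29.0% and 22.4% of the summed level. A filter on low counts kept 44 members, and the other 11 reached at most 4.12 CPM in any library.

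**Figure D1:**
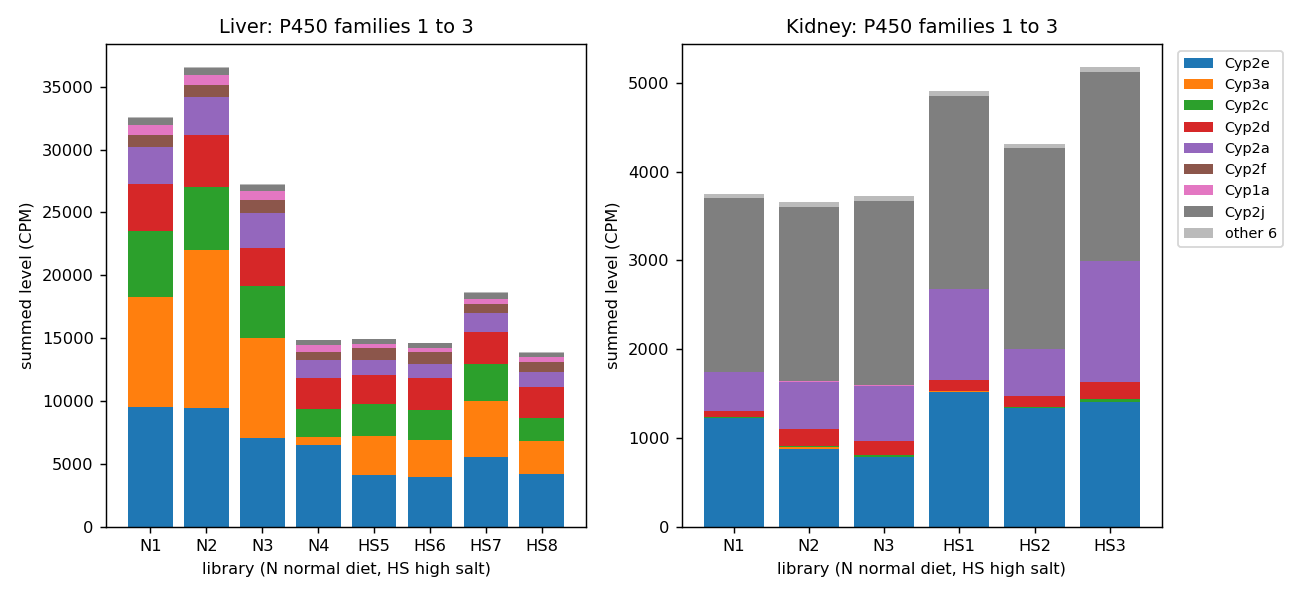
Summed CPM of the P450 genes in each library of liver (left) and kidney (right), stacked by subfamily. The liver sums were highest in N1, N2 and N3, at 27268 CPM or more, and the kidney sums ran from 3655 to 5179 CPM.

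Of the 44 members tested in liver, 36 had a lower fitted level on high salt and 8 a higher one, where 52.0% of all genes tested were lower. The median log2 fold change, high salt against normal diet, was -0.72 for the members and -0.02 for all 15130 genes tested. Of the members, 24 of 44 had an unadjusted edgeR p under 0.05, where 21.2% of all genes did. After adjustment over all genes, 3 members passed the threshold of 0.05, all lower, where 1.00% of all genes passed in either direction and 0.410% passed as lower. These were Cyp1a2 (chr9:57676937-57683703, minus strand), Cyp2b10 (chr7:25897620-25926624, plus strand) and Cyp3a13 (chr5:137892932-137921619, minus strand), all in mm10. The libraries of the 2 diets did not overlap for 9 members that were lower on high salt and 1 that was higher, where 6.03% and 6.42% of all genes did so. The shift of the members depended on the libraries. Without N1 and N2 the median was -0.37 for 46 members tested and -0.01 for all genes. An unadjusted edgeR p under 0.05 was then found for 16 members and 16.1% of all genes. Without N4 the median was -0.76 for 44 members, and 29 members and 28.5% of all genes had such a p.

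Cyp1a2, the caffeine-oxidising enzyme of family 1, fell on high salt. Its level was 797, 859.5, 699 and 517 CPM in N1 to N4. It was 303, 322, 397 and 345 CPM in HS5 to HS8. Every high salt library lay below every normal diet library, and the means were 718 ± 149 and 342 ± 41.0 CPM (SD, n = 4 each). The log2 fold change was -1.07 (SE 0.20), with an edgeR adjusted p of 0.0450. Cyp1a1, its neighbour in the subfamily and the classical target of Ahr, was near the floor at 0.264 to 2.19 CPM, with a log2 fold change of -0.33 (SE 0.50, adjusted p = 0.728). Cyp1b1, an extrahepatic enzyme of steroid and retinoid oxidation, was at 0.214, 0.327, 0.315 and 0.144 CPM on the normal diet and 0.373, 0.290, 0.520 and 0.671 CPM on high salt, with an adjusted p of 0.230.

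Cyp2b10, the gene most used as a readout of CAR, fell the most of the 3. Its level was 8.42, 22.0, 14.8 and 9.90 CPM on the normal diet. On high salt it was 2.98, 2.90, 3.49 and 1.20 CPM. The groups did not overlap, and the log2 fold change was -2.38 (SE 0.39, edgeR adjusted p = 0.0321). The raw counts behind these values ran from 68 to 807.

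Cyp3a13, a Cyp3a enzyme also made in gut, fell by 0.86 on the log2 scale (SE 0.17, edgeR adjusted p = 0.0481). The normal diet libraries were close together at 149, 168, 159 and 169 CPM. The high salt libraries were at 98.4, 93.3, 98.7 and 65.8 CPM. No library of one diet reached the range of the other, and HS8 was the lowest.

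These 3 calls depended on the libraries used. With HS5 and HS6 summed to 1 library none of the 3 passed, and 12 of all 15399 genes did. None passed without N1 and N2 together, where 52 of 15885 genes did. Leaving out 1 library at a time gave 12 member calls when N4 was dropped, all lower, where 2.68% of all genes were called. It gave 8 when N3 was dropped, 7 lower and Cyp2c38 higher, where 4.94% of all genes were called. It gave 1 each without N1 and HS7, where 0.252% and 0.785% of genes were called, and 0 without N2, HS5, HS6 or HS8, where 12 to 41 genes were. The calls over all genes thus moved with the library left out, as the members' calls did. Over 19 alternatives Cyp2b10 passed in 13, Cyp1a2 in 8 and Cyp3a13 in 7. The fold changes of these 3 genes moved less than their calls. Over the same 19 alternatives Cyp1a2 stayed between -1.21 and -0.83, Cyp2b10 between -2.57 and -2.06, and Cyp3a13 between -0.92 and -0.73. Some other members moved further: without N1 and N2, Cyp2c29 went from -0.92 to -0.48 and Cyp2d9 from -0.51 to -0.15.

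The promoters of the 3 called genes are shown to let a reader compare what lies before each start. Each is the 250 bases before the RefSeq gene start on GRCm38.p6, 5′ to 3′ on the gene's own strand. Capitals mark any match, on either strand, to any of 5 short motifs. The motif AGGTCA is the half-site bound by many nuclear receptors. The motif GCGTG is the core of the element bound by the aryl hydrocarbon receptor. The motif TATAAA is the TATA box, GTTAAT is a half-site of the liver factor HNF1, and CCAAT is the box bound by factors such as NF-Y. The windows are chr9:57683656-57683905 on the minus strand, chr7:25897408-25897657 on the plus strand and chr5:137921620-137921869 on the minus strand.
Cyp1a2: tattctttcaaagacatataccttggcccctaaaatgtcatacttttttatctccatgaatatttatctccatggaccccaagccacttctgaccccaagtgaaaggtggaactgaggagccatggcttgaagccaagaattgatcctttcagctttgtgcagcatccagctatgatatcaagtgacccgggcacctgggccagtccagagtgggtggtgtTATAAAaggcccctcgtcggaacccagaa
Cyp2b10: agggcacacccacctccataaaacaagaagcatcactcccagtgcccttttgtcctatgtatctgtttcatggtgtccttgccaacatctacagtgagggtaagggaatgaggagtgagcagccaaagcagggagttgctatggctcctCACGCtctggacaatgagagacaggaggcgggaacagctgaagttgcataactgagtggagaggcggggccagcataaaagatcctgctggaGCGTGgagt
Cyp3a13: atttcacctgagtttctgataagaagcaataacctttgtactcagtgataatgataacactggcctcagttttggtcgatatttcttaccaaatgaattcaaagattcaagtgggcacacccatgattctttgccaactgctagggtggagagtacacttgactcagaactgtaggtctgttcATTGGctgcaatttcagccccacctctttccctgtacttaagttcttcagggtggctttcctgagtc
Cyp1a2 held TATAAA at position -29, Cyp2b10 held GCGTG at -9 and, on the opposite strand, at -101, and Cyp3a13 held CCAAT on the opposite strand at -67. Positions count back from the RefSeq start. The GENCODE genes of Cyp1a2 and Cyp2b10 begin further upstream, so the Cyp1a2 match and the Cyp2b10 match at -9 lie inside those gene models. Of 32851 windows of this length, 12.37% held the TATA box, and 48.89% of the 45 windows found for 42 members did. The Ahr core was in 28.16% of all windows and 15.56% of member windows. The CCAAT box was in 33.85% and 35.56%, the nuclear receptor half-site in 14.02% and 24.44%, and the HNF1 half-site in 6.43% and 13.33%. None of these 5 motifs, which were chosen after the values were seen, was found in all 3 promoters.

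**Figure D2:**
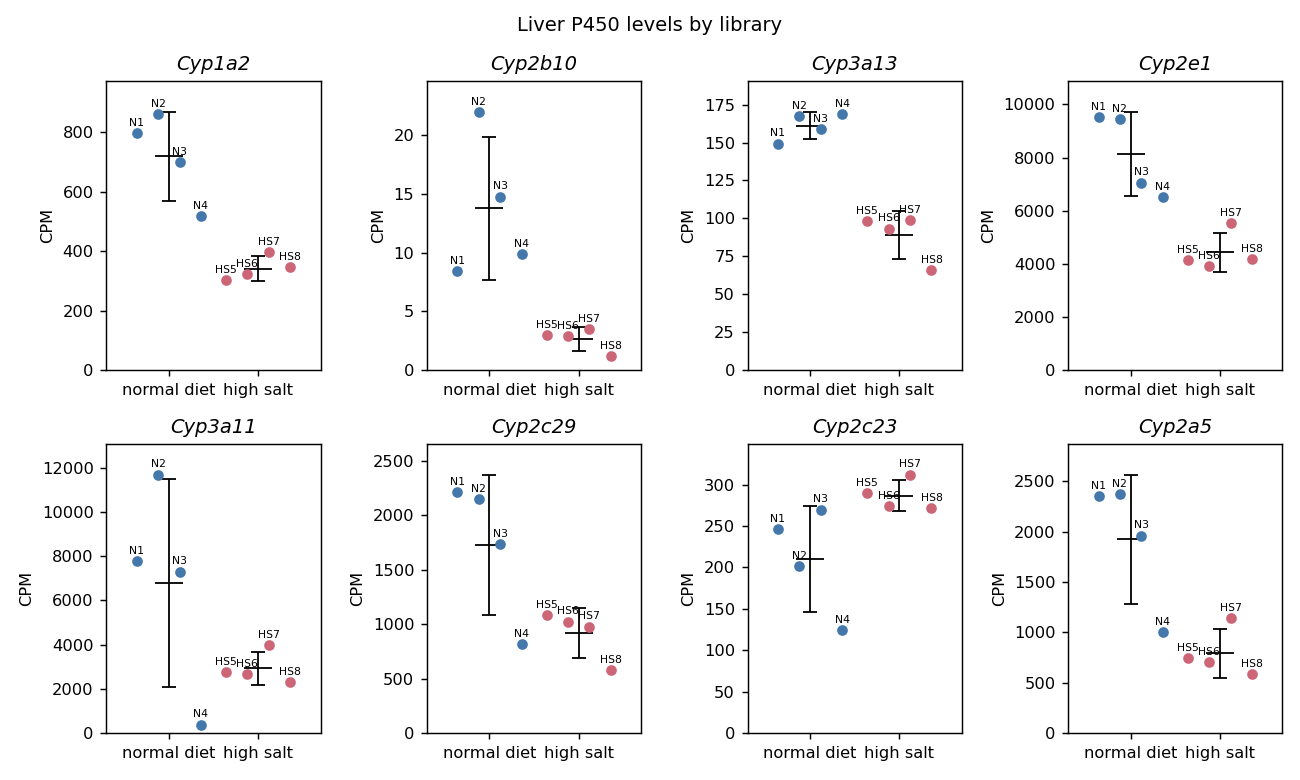
CPM of 8 P450 genes in each liver library, by diet; the bar and whiskers give the mean and SD of 4 libraries. Cyp1a2, Cyp2b10, Cyp3a13 and Cyp2e1 show no overlap between diets, and N4 is the lowest normal diet library for Cyp3a11 at 378 CPM.

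The most abundant member, Cyp2e1, which oxidises ethanol and acetone, was lower on high salt but did not pass the adjustment. It was at 9535, 9440.1, 7059 and 6511 CPM in N1 to N4. It was at 4151, 3925, 5525 and 4165 CPM in HS5 to HS8. The diets did not overlap, and the log2 fold change was -0.87 (SE 0.25, edgeR adjusted p = 0.114). Per kilobase of exon its level on the normal diet was 3770.3 CPM, the highest of the members, followed by Cyp3a11 at 1334 and Cyp2a5 at 928 CPM per kb.

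Cyp3a11, the main PXR target among the Cyp3a genes, varied widely between the normal diet livers. It was at 7796, 11691, 7307 and 378 CPM in N1 to N4. The high salt livers lay between these, at 2741, 2666, 3978 and 2295 CPM. Its log2 fold change was -1.22 (SE 0.72, adjusted p = 0.352). Without N4 it was -1.62 (SE 0.28, edgeR adjusted p = 0.0364). Without N1 and N2 it was -0.40 (SE 0.85, edgeR adjusted p = 0.857). Over 18 alternatives Cyp3a11 passed in 1. Cyp3a25 was low in N4 too, at 117 CPM against 405 to 686 in N1 to N3, and so did Cyp3a59, 5.20 CPM against 45.5 to 90.6. Of the 44 members, 27 had their lowest normal diet value in N4, where 26.64% of all genes did. The acute phase genes stood highest in the same library, and their part in these values was not tested. Cyp3a11, Cyp3a13 and Cyp3a59 were among the 12 members called without N4.

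The Cyp2c genes, 15 rows on chromosome 19 of which 2 are pseudogenes, include the liver's arachidonic acid epoxygenases. Of 14 tested, 12 were lower on high salt and none passed. Cyp2c29, the most abundant, was at 2212, 2152, 1737 and 818 CPM on the normal diet and at 1082, 1023, 976 and 577 CPM on high salt, with an adjusted p of 0.172. Cyp2c50 and Cyp2c54, near-identical to each other and to Cyp2c37, differed in the same direction. Cyp2c50 was at 719, 661, 519.8 and 355 CPM on the normal diet and 295, 287, 355 and 189.8 CPM on high salt, so N4 overlapped HS7. Their log2 fold changes were -1.001 (SE 0.27, adjusted p = 0.0989) and -1.44 (SE 0.36, adjusted p = 0.0867). Cyp2c70, which makes muricholic bile acids in mice, was at 513, 769, 611 and 310.3 CPM against 231, 219, 352 and 246 CPM (adjusted p = 0.0981). Only N4 overlapped the high salt livers in Cyp2c70.

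Cyp2c23, named Cyp2c44 in much of the kidney literature, was the 1 tested member whose high salt livers all lay above the normal diet livers. It was at 246, 201, 269.6 and 124 CPM on the normal diet and at 289, 274, 312 and 272 CPM on high salt. The gap between N3 and HS8 was small, and the log2 fold change of 0.45 (SE 0.23) had an adjusted p of 0.295. Of the 12 epoxygenase genes tested in liver 3 were higher and 9 lower, none called, with a median log2 fold change of -0.83.

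The Cyp2d enzymes hydroxylate steroids and many drugs. All 10 Cyp2d rows tested, 3 of them pseudogenes, were lower on high salt, none called, and the smallest change was -0.03 for Cyp2d37-ps. Cyp2d9, a male-biased testosterone hydroxylase, was at 1785, 2146, 1489.5 and 1022 CPM on the normal diet and within 1103 to 1164 CPM on high salt (adjusted p = 0.256). Cyp2d10 was at 1091, 1109, 719 and 571 CPM on the normal diet and 601, 645, 652 and 579 CPM on high salt. Cyp2d26 was at 579.7, 596, 490.2 and 590.4 CPM and 436, 466, 495 and 490.2 CPM, with an adjusted p of 0.371. The high salt livers fell within the normal diet range for Cyp2d9 and Cyp2d10. The diets did not overlap for Cyp2d40, at 91.5, 87.9, 60.4 and 101.2 CPM against 46.0, 51.8, 57.2 and 52.9 CPM (log2 fold change -0.71, adjusted p = 0.0856). Nor did they for Cyp2d12, low at 1.39, 0.824, 1.36 and 2.77 CPM against 0.233, 0.271, 0.629 and 0.393 CPM (-2.06, adjusted p = 0.0681). DESeq2 called both.

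Among the Cyp2a genes, Cyp2a5 was at 2354, 2378, 1962 and 1003 CPM on the normal diet and at 746, 701, 1142 and 583 CPM on high salt. Its log2 fold change was -1.28 (SE 0.32, adjusted p = 0.0867). Cyp2a4 was at 0.240 to 1.28 CPM in 7 livers and at 254 CPM in HS8. HS8 also had the lowest Cyp2a5, and the sum of the pair there, 836.5 CPM, lay within the 702 to 1143 CPM of the other high salt livers. A log2 fold change of 7.18 (SE 2.24, adjusted p = 0.133) for Cyp2a4 rested on HS8: without it the value was 0.51 (SE 0.58). Cyp2a12, a bile acid and steroid hydroxylase, was at 627, 602, 830.4 and 439.7 CPM on the normal diet and 427, 396, 375 and 353 CPM on high salt, with no overlap (adjusted p = 0.132).

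Other subfamilies each had 1 leading gene in liver. Cyp2f2, the naphthalene-oxidising enzyme known from airway cells and periportal liver, was at 922, 959, 1019 and 622 CPM against 955, 967, 707 and 806 CPM. Its log2 fold change was -0.04 (SE 0.21), and its sign turned when single libraries were left out. Cyp2j5 was at 473, 433, 418 and 306 CPM on the normal diet and 338, 333, 379 and 303 CPM on high salt (adjusted p = 0.410). Cyp2g1, an olfactory enzyme, was low at 7.09, 3.00, 4.53 and 1.87 CPM against 1.03, 1.08, 1.41 and 0.720 CPM, with no overlap and an adjusted p of 0.0583. The vitamin D 25-hydroxylase Cyp2r1 was at 14.5, 14.7, 11.7 and 9.18 CPM against 11.4, 12.2, 18.7 and 12.2 CPM, and its groups overlapped. Cyp2u1, a fatty acid hydroxylase, was at 27.7, 22.9, 20.8 and 18.0 CPM against 27.5, 27.4, 27.0 and 46.6 CPM (adjusted p = 0.211), with HS8 above the rest. Cyp2s1 was too low to be tested, at 0.166, 0.136, 0.220 and 0.240 CPM against 0.142, 0.124, 0.624 and 0.601 CPM.

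Grouped by known inducer, the CAR and PXR list had 10 members tested, all lower on high salt, 2 of them called (Cyp2b10 and Cyp3a13), with a median log2 fold change of -1.003. The Ahr list had 3 tested, 2 lower and 1 called (Cyp1a2). Of all 44 members tested in liver, 36 were lower and 3 called, with a median of -0.72, so a lower level was not particular to these lists. Of all genes 52.0% were lower and 0.410% were called lower. Of 24 CAR and PXR targets outside these families, 18 were lower and 1 passed, Gstm2, a glutathione transferase, which fell by 1.09 on the log2 scale (SE 0.21, edgeR adjusted p = 0.0493). No receptor passed. Nr1i3 was at 131 to 217 CPM over all livers (log2 fold change 0.04, SE 0.22), Nr1i2 at 42.5 to 58.9 CPM (-0.01, SE 0.16) and Ahr at 11.8 to 32.5 CPM (-0.28, SE 0.26). None of 24 receptors and factors passed, with a median of 0.07. Hnf4a, a main liver factor for these promoters, had a log2 fold change of 0.03 (SE 0.22).

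Of 16 reductase, cytochrome b5 and heme synthesis genes, 12 were lower and none passed, where 52.0% of all genes were lower. Por was at 312, 299, 340.2 and 313 CPM on the normal diet and at 240.2, 271, 233 and 171 CPM on high salt, with no overlap (adjusted p = 0.180). Such a separation, lower on high salt, was found for 6.03% of all genes. Alas1, the rate-limiting enzyme of heme synthesis, overlapped between diets, at 236 to 866 and 222 to 597 CPM. Outside the families, 2 of 20 other genes of the pericentral zone passed, both lower: Oat (ornithine aminotransferase, log2 fold change -1.41, SE 0.27, edgeR adjusted p = 0.0451) and Rhbg (an ammonia transporter, -2.30, SE 0.24, adjusted p = 0.00517). Of 17 periportal genes, 1 passed, Sult5a1, a sulfotransferase (-1.82, SE 0.24, edgeR adjusted p = 0.0140). For both zones the share of all genes that passed as lower was 0.410%. The median log2 fold change was -0.24 over the pericentral list and -0.18 over the periportal list. Rhbg passed in 19 of 19 alternatives, Sult5a1 in 15, and Gstm2 and Oat in 8 each. Without N4 all 4 passed, at adjusted p 0.00929 for Rhbg, 0.0149 for Sult5a1, 0.0449 for Gstm2 and 0.0405 for Oat. With HS5 and HS6 summed only Rhbg did (0.0320), and the others had 0.0742 for Sult5a1, 0.201 for Gstm2 and 0.188 for Oat. Without N1 and N2, Rhbg (0.0132) and Sult5a1 (0.0227) passed, and Gstm2 (0.126) and Oat (0.0991) did not. The hepatocyte marker list had a median of -0.52 with none of 15 called, and 13 of them lower. Its summed level went the other way, at 113828, 104792, 97577 and 96679 CPM in N1 to N4 and 115796, 113440, 129513 and 109183 CPM in HS5 to HS8.

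**Figure D3:**
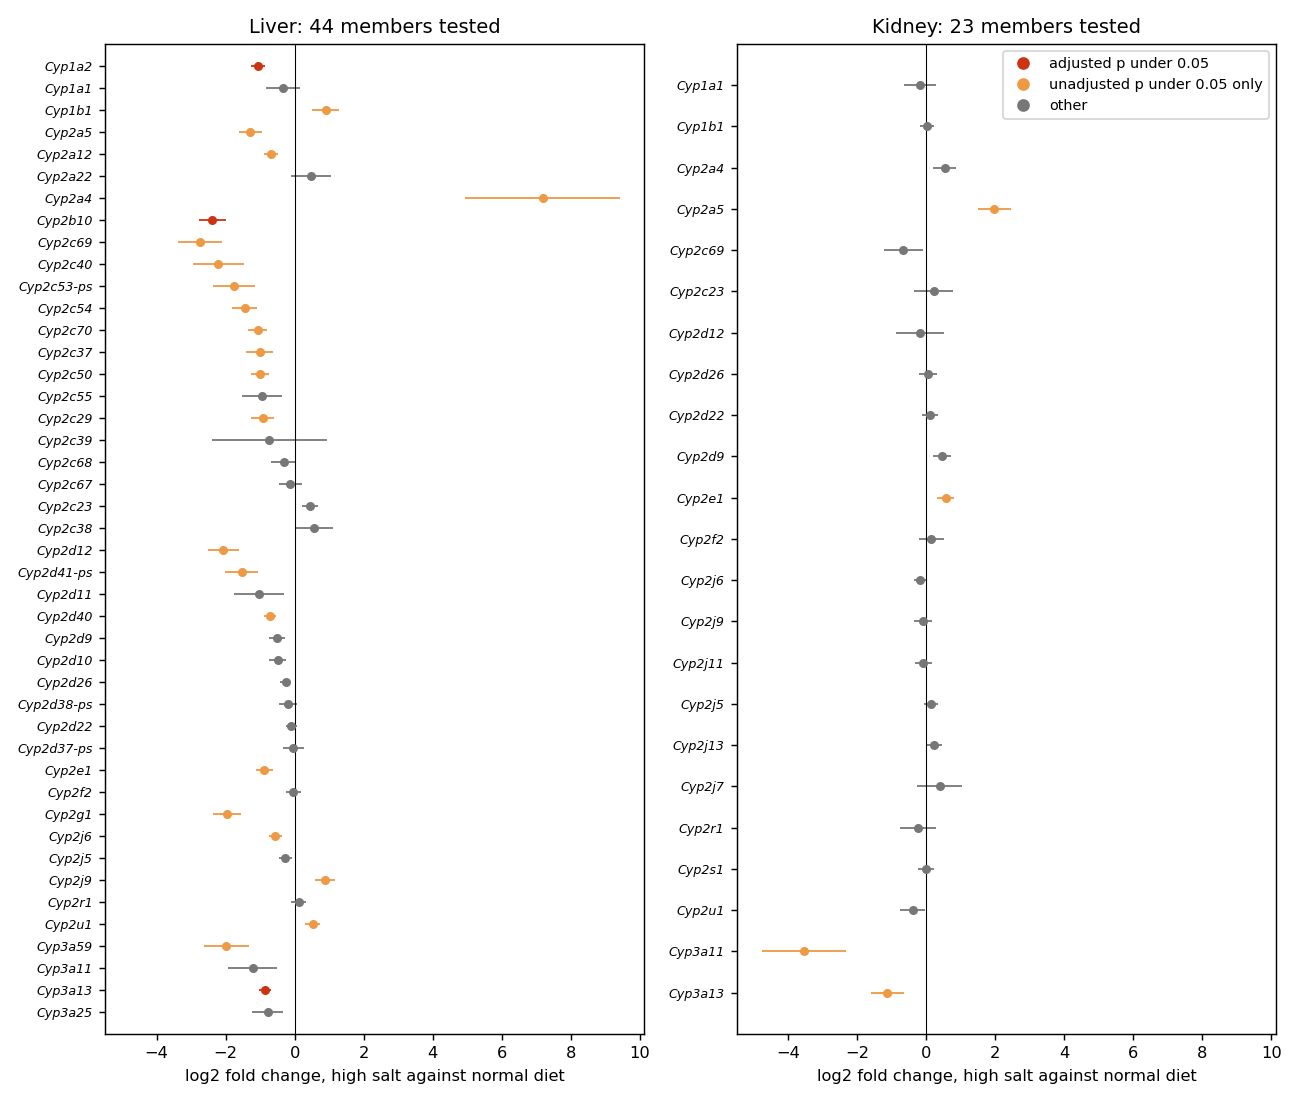
Log2 fold change, high salt against normal diet, with its standard error, for each member tested in liver (left, 44 genes) and kidney (right, 23 genes), ordered by subfamily. Red marks the 3 members with an edgeR adjusted p under 0.05, all below 0 in liver, and orange an unadjusted p under 0.05 only.

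In kidney Cyp2j5 led the set, followed by Cyp2e1, which led in liver. The summed level was 3709.7 ± 48.0 CPM (SD, n = 3) on the normal diet and 4800.5 ± 444 CPM (SD, n = 3) on high salt, and Cyp2j5, Cyp2e1 and Cyp2a4 carried 75.9% of it. The filter kept 23 of 33 members, and the other 10 reached at most 1.32 CPM. Of the 23, 12 were higher and 11 lower on high salt, where 53.7% of all genes were lower. The median log2 fold change was 0.03 for the members and -0.02 for all 15847 genes tested. No member passed the edgeR threshold, where 0% of all genes did. An unadjusted edgeR p under 0.05 was found for 4 of 23 members, where 2.01% of all genes (318) had one. These were Cyp2a5, Cyp2e1, Cyp3a11 and Cyp3a13. The contrast moved with the library left out. Without N1 it was 4 of 23 members and 16.3% of all genes, and without N2 1 of 23 and 1.35%. Without N3, HS1, HS2 or HS3 it was 2 of 23 members and 1.30% to 2.73% of all genes. With every library kept, DESeq2 called 1 of 33 members, Cyp2a5, where 0.0644% of all genes were called. The diets did not overlap for 4 of the tested members, where 6.88% of genes did so: Cyp2j5, Cyp2e1 and Cyp2a5 were higher and Cyp3a13 lower.

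Cyp2j5, an arachidonic acid epoxygenase of the proximal tubule, was the most abundant member in kidney, also per kilobase at 599.7 CPM per kb on the normal diet. It was at 1338, 1399 and 1482 CPM on the normal diet and at 1527, 1591 and 1550.2 CPM on high salt. The ranges were separate but close, and the log2 fold change was 0.15 (SE 0.20, edgeR unadjusted p = 0.480). Cyp2j13 was at 411, 277 and 304 CPM against 440.1, 385 and 346 CPM. Cyp2j11 was at 160.5, 229 and 235 CPM against 163, 232 and 196 CPM. Both overlapped between diets. Cyp2j6 was at 42.8, 51.4 and 50.2 CPM against 41.7, 45.3 and 39.9 CPM, and Cyp2j9 at 4.90, 6.73 and 6.97 CPM against 6.21, 7.06 and 4.27 CPM. These overlapped too.

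Cyp2c23, an arachidonic acid epoxygenase, was low in these libraries. It was at 11.2, 9.49 and 14.5 CPM on the normal diet. It was at 8.84, 4.47 and 27.3 CPM on high salt, so high salt held both the lowest and the highest library. The log2 fold change was 0.21 (SE 0.57), and -0.81 without HS3. Of 6 epoxygenase genes tested in kidney, 3 were higher and 3 lower, with a median of 0.03.

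Cyp2a5 had the smallest p of the kidney members. It was at 46.2, 96.2 and 94.5 CPM on the normal diet and at 382, 127 and 424 CPM on high salt. HS2 stood close to the normal diet libraries, HS1 and HS3 well above them. The log2 fold change was 1.98 (SE 0.48, edgeR unadjusted p = 0.00335, adjusted p = 1.000). Its copy Cyp2a4 was more abundant in kidney, at 393, 438 and 531 CPM against 639.6, 399 and 929.8 CPM, and HS1 and HS3 were again the highest. Cyp2a4 had a log2 fold change of 0.53 (SE 0.32, unadjusted p = 0.136). The sum of the pair was 439, 534 and 626 CPM on the normal diet and 1022, 526 and 1354 CPM on high salt, so the diets overlapped in the sum. In all 8 livers the order of the copies was the opposite, with Cyp2a5 above Cyp2a4, and HS8 was the liver where they lay closest.

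**Figure D4:**
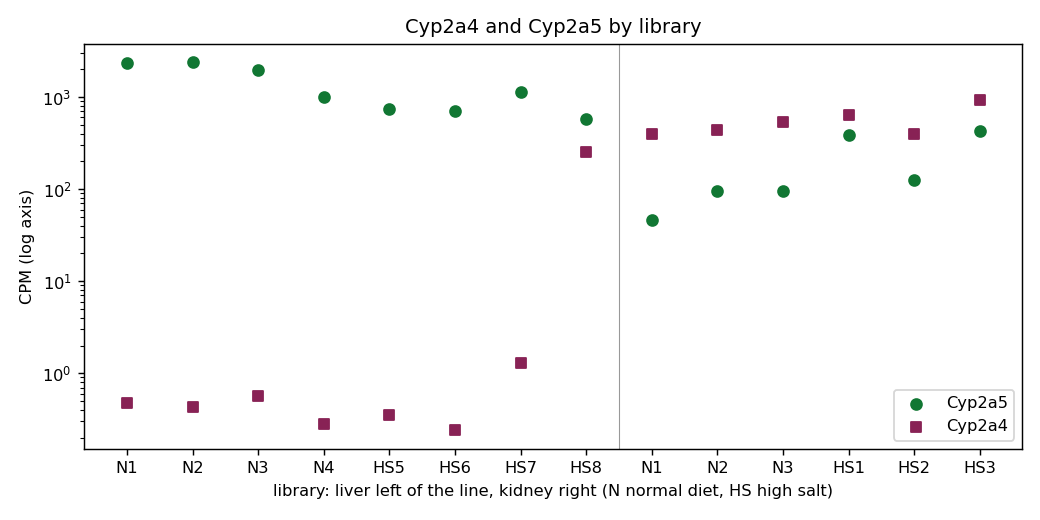
CPM of Cyp2a4 (squares) and Cyp2a5 (circles) in each library on a log axis, liver left and kidney right. Cyp2a4 stays at or below 1.28 CPM in 7 livers, reaches 254 CPM in HS8 and lies above Cyp2a5 in all 6 kidneys.

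Cyp2e1 was at 1224, 879 and 787 CPM in the normal diet kidneys and at 1523, 1339 and 1407 CPM on high salt, with no overlap. The log2 fold change was 0.56 (SE 0.24, edgeR unadjusted p = 0.0464). Cyp2d12 was at 11.4, 113.5 and 86.2 CPM against 43.8, 45.7 and 95.4 CPM, with N1 far below the rest. Cyp2d9 was at 35.1, 60.7 and 55.6 CPM against 57.9, 64.8 and 85.03 CPM. The ranges of both Cyp2d genes overlapped between diets. Cyp2d26 was at 14.8, 10.5 and 8.08 CPM against 13.6, 11.3 and 9.77 CPM, and Cyp1b1 at 31.7, 42.1 and 46.8 CPM against 41.4, 38.6 and 43.1 CPM. Each high salt range lay inside the normal diet range. Cyp2s1 was at 6.15, 6.27 and 4.36 CPM against 5.90, 5.17 and 5.50 CPM, and Cyp2u1 at 4.70, 2.40 and 2.80 CPM against 3.44, 2.02 and 2.09 CPM. The vitamin D enzyme Cyp2r1 was at 0.849, 2.46 and 3.29 CPM against 1.30, 2.71 and 1.64 CPM. None of these 3 separated the diets. Cyp1a1 (0.550, 1.52 and 0.968 CPM against 0.759, 1.01 and 0.909 CPM) and Cyp2f2 (0.909, 0.880 and 0.986 CPM against 1.04, 1.21 and 0.821 CPM) were the lowest of these.

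The Cyp3a genes were near the floor in kidney. Cyp3a11 was at 0.200, 16.1 and 2.90 CPM on the normal diet and at 0.759, 0.315 and 0.500 CPM on high salt. The log2 fold change of -3.55 (SE 1.22, edgeR unadjusted p = 0.0191) rested on N2: without it the value was -1.54 (SE 0.93). The same library held the highest level of 9 of 15 hepatocyte markers, with Alb at 35.7 CPM against 2.70 to 10.9 CPM in the other 5 kidneys. The summed hepatocyte list was not highest there, at 852 CPM within a range of 755 to 968 CPM. The part of these markers in the Cyp3a11 value was not tested. Cyp3a13 was at 0.749, 0.996 and 1.31 CPM against 0.313, 0.378 and 0.682 CPM, on 6 to 27 counts.

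**Figure D5:**
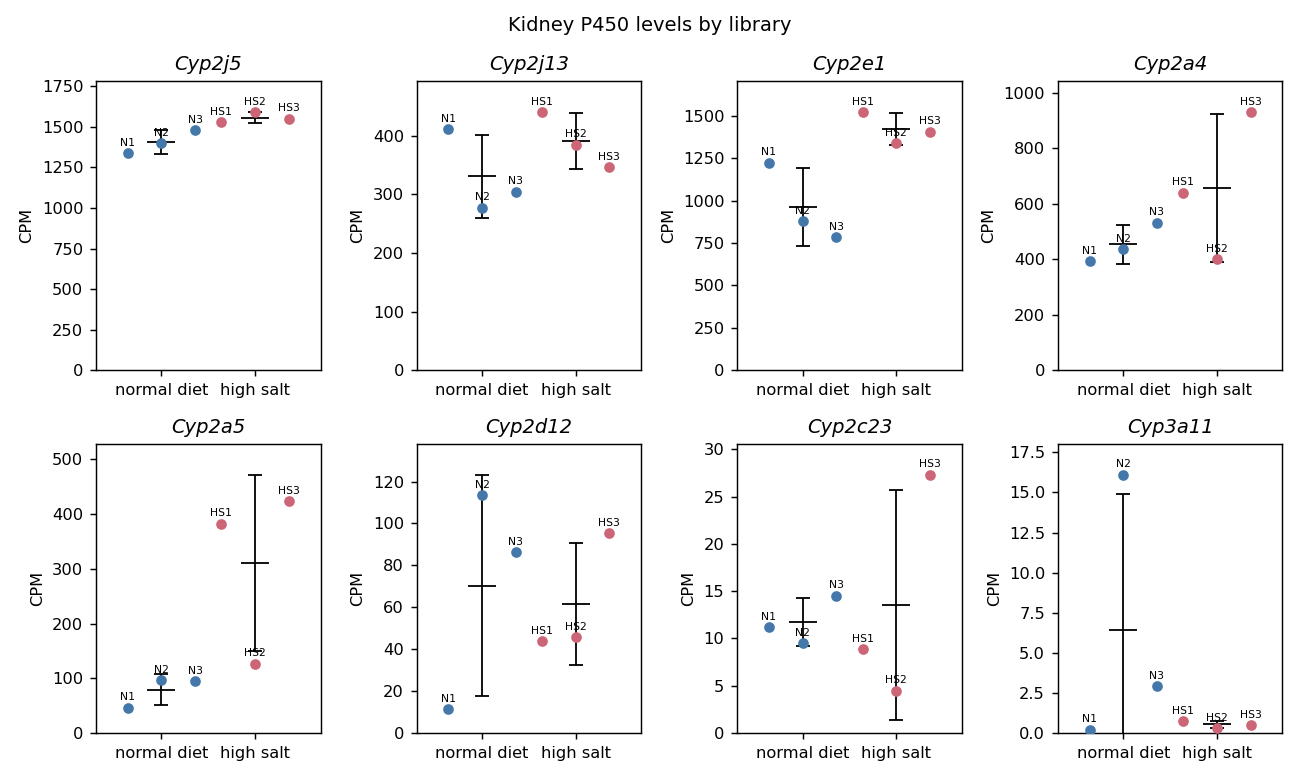
CPM of 8 P450 genes in each kidney library, by diet; the bar and whiskers give the mean and SD of 3 libraries. Cyp2a5 is higher in HS1 and HS3 than in the other 4 libraries, and Cyp3a11 is highest in N2 at 16.1 CPM.

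Among the partners and receptors in kidney, the log2 fold change was -0.11 (SE 0.21) for Por, 0.15 (SE 0.44) for Nr1i3, 0.11 (SE 0.35) for Nr1i2, -0.37 (SE 0.24) for Ahr, 0.32 (SE 0.32) for Alas1 and 0.09 (SE 0.32) for Hnf4a, none called.

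The difference of the diet effect between the tissues was tested in 1 model over all 14 libraries. None of 31 members passed the edgeR threshold, where 0% of 16633 genes did, and 13 members had an unadjusted p under 0.05, where 10.1% of all genes did. With 1 library left out, 6 to 12 members had such a p, where 6.98% to 15.6% of all genes did. Cyp2a4, 1 of the 13, had a log2 difference of 6.65 (SE 2.34) that rested on liver HS8: without it the value was -0.03 (SE 0.76). The joint filter also kept members that were high in only 1 tissue, so the count of 13 includes members near the floor in the other. Among them, Cyp2c29 (0 to 20 counts) and Cyp2c70 (0 to 12) were too low to be tested in kidney alone. Cyp2j13 (0 to 18 counts) was too low in liver alone. Cyp2b10 had the smallest p, with a log2 difference (liver minus kidney) of -4.63 (SE 0.86, adjusted p = 0.0970). Its kidney values were 0.150, 0.234 and 0.0484 CPM against 0.447, 1.32 and 0.364 CPM, on 1 to 21 counts, too few to be tested in kidney alone. Cyp2a5 followed at -3.27 (SE 0.64, adjusted p = 0.101), lower on high salt in liver and higher in kidney. Cyp2e1, with no overlap between diets in either tissue and opposite directions, had -1.44 (SE 0.48, adjusted p = 0.330). DESeq2 called these 3 genes, 3 of 32 members, where 0.809% of genes were called. In liver alone it called 15 members, all lower, where 5.54% of genes were called.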

How the data were processed

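RNA from liver and kidney was sequenced after SMARTER mRNA-Seq library preparation from 1 µg of total RNA, per the labels' protocols. The submitters' processing notes name Partek 7.0, STAR 2.5.3a, DESeq2 and mm10. The deposited raw tables hold expected counts per gene, not all whole, and the deposited normalized tables hold a signal scaled between libraries by the authors, used only in alternatives. Expected counts were rounded and tested per tissue with edgeR 4.0.16 in R 4.3.3 (quasi-likelihood, TMM, filterByExpr), with p-values adjusted by Benjamini-Hochberg over all genes tested and the threshold at 0.05. CPM used TMM-scaled library sizes, and levels per kilobase used the summed exon length. A joint fit over 17600 shared genes tested tissue by diet. The fits were tested on simulated data. The members and gene lists (inducers, epoxygenases, partners, receptors, zones, markers, acute phase) were chosen with earlier results of these data known. Named genes were those called, per tissue the 12 most abundant and the 3 with the smallest p, the 2 with the smallest p for the tissue difference, epoxygenases at 5 CPM or more in kidney and the leading gene of each subfamily. Genes outside the families were named when a list gene passed, and Por, Nr1i3, Nr1i2, Ahr, Hnf4a and Alas1 always. Others named were chosen after their values were seen. Gene models, identities and coordinates came from GENCODE M21, whose starts equal the deposited ones for 56 of 56 members and whose ends lie 1 base before the deposited stops. Promoters came from RefSeq (GRCm38.p6). The alternatives covered scaling, filters, DESeq2 1.42.0, limma 3.58.1 on normalized values with pseudocounts of 1 and 0.1, left-out or summed libraries, summed copies and mitochondrial genes removed.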

Additional observations from a re-analysis of the deposited data

Results flagged for a closer look

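In each liver group of 4, the lowest or highest library was compared with its nearest neighbour (Dixon's ratio, 95% critical value) for the 44 members tested. Of 88 groups, 10 had a library that stood apart. The critical value is set for about 1 in 20 groups of independent, normally spread values. These groups shared libraries and near-identical copies, and HS5 and HS6 were much alike, so the 10 cannot be read against that rate. HS8 accounted for 4 of them: Cyp2a4 at 254 CPM, Cyp2c39 at 26.7 CPM, Cyp2u1 at 46.6 CPM and Cyp3a13 at 65.8 CPM. The first 3 of these were high and the last was low. N3 accounted for 3, with Cyp2c38 at 31.4 CPM and its near-identical copy Cyp2c39 at 46.1 CPM, both high, and Cyp2d26 at 490.2 CPM, low. Besides N3 and HS8, every liver held Cyp2c39 at 1.009 CPM or less. HS7 was high for Cyp2e1 at 5525 CPM and Cyp2r1 at 18.7 CPM. N1 was high for Cyp2c69 at 3.97 CPM.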

How the results depend on the processing

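The 3 liver calls (152 over all genes) became 15 with DESeq2 (1084 over all genes), 1 without a filter on low counts (116), 1 with limma at either pseudocount (127 and 117), 0 with HS5 and HS6 summed (12), 0 without N1 and N2 together (52), and 0 to 12 with 1 library left out (12 to 765). Members called were 1 with DESeq2 in kidney and 3 for the tissue difference, and 0 to 0 in both with 1 library left out. The cause was not tested. Over 19 liver members and 19 alternatives, 306 of 355 values kept direction and side of the threshold, 29 lost and 14 gained a call, and 6 changed sign; in kidney 24 of 295, over 10 members, changed sign, all of members with no call. In liver Cyp2f2 turned to 0.066 without N1 and N2, and with 1 library left out Cyp2f2 ran from -0.18 to 0.034 and Cyp2r1 from -0.084 to 0.20. In kidney the ranges with 1 library left out were -0.48 to 0.22 for Cyp1a1, -0.12 to 0.15 for Cyp1b1, -0.81 to 0.62 for Cyp2c23, -0.69 to 0.34 for Cyp2d12, -0.13 to 0.32 for Cyp2d26, -0.24 to 0.043 for Cyp2j11, -0.24 to 0.097 for Cyp2j9, -0.64 to 0.18 for Cyp2r1 and -0.17 to 0.071 for Cyp2s1. With limma (pseudocount 1) the sign turned for Cyp2c23 (-0.18), Cyp2d12 (0.23), Cyp2f2 (-0.11) and Cyp2r1 (0.028), and with upper quartile scaling for Cyp2s1 (0.0026). Kidney replicate numbers were shared between diets, and the labels do not say whether they pair the samples. Same-number correlations were 0.407, 0.373 and -0.0899, and those between different numbers ran from -0.465 to 0.387, which does not settle it. With the number as a replicate block 0 kidney members were called, and Cyp2c23 (-0.13), Cyp2d12 (0.23) and Cyp2s1 (0.00011) turned. Liver numbers could not be paired because the high salt columns match no title number. Members under about 1 CPM rest on few counts. Gstm2, Oat, Rhbg and Sult5a1 were tried under the same alternatives after the data were seen.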

Other observations

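Other cell types were read from marker lists in the same livers. Of 11 endothelial, stellate and stromal markers tested, 10 were higher on high salt and 1 lower, none called, with a median log2 fold change of 0.55. Of 11 immune markers tested, 9 were lower, none called, with a median of -0.26; without N4, 7 of 11 were higher and the median was 0.11. The 5 bile duct markers tested were split, 3 higher and 2 lower. The 26 acute phase genes were all lower on high salt, none called, with a median of -2.07 and N4 the highest library for 25 of them. Without N4, 24 of 26 were lower, 8 called, with a median of -0.57, where 2.68% of all genes were called in either direction. In kidney, the immune marker sum ran from 34.4 CPM in N1 to 174 CPM in N2.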
